A study of Mus musculus with 8 samples.

Results

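Receptors for pituitary hormones carry the signals that drive the ovary, and the transcripts of 3 of them were followed in ovaries of 3-week-old mice: Fshr, the receptor for follicle stimulating hormone (FSH), Lhcgr, the receptor for luteinising hormone (LH), and Prlr, the prolactin receptor. They were taken by symbol, giving 3 of the 45583 genes in the count table, and all 3 were among the 16601 genes that passed the filter on low counts. The libraries came from single ovaries of 8 female C57/Bl6 mice, 4 labelled WT and 4 labelled GOAT KO. The study describes the latter as global knockouts of ghrelin-O-acyltransferase (GOAT, gene Mboat4). WT and GOAT KO mice were littermates from crosses of heterozygotes, and neither group received a treatment. Libraries are named by group and animal number.

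Fshr and Lhcgr are G protein-coupled receptors with a large leucine-rich hormone-binding domain, and both raise cyclic AMP through the stimulatory G protein. In the ovary Fshr is made by granulosa cells, while Lhcgr is made first by theca cells and later by granulosa cells of large antral follicles. Prlr is a single-pass cytokine receptor that signals through JAK2 and STAT5, and it is best known in the ovary for maintaining the corpus luteum. Its long form carries the signalling tail, and short forms made from other last exons lack most of it. At the age studied the mice were juvenile.

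The label check came first. Mboat4 had 1, 1, 1 and 3 counts in the libraries labelled WT and 5, 7, 7 and 8 counts in those labelled GOAT KO. The targeted gene was thus near 0 in both groups, with the higher counts under the label GOAT KO. Which exons the allele removes is not given in the sources used here, so these few counts cannot check the labels. The groups are therefore called by their labels throughout. Gene counts per library ran from 16147216 to 19481798. GOAT KO 1139 stood apart from its group in a multidimensional scaling of the libraries. Under the label WT, 1120 (0.17, -0.43) and 1118 (-0.47, 0.76) lay at opposite ends, so the scaling alone did not single out 1120. The chi-square per gene between the counts of 2 WT libraries was 17.9 to 27.0 with 1120 and 4.21 to 9.60 without it. The methods of the study left out a library of each group without naming it. Results are therefore given for all 8 libraries and for the 6 without WT 1120 and GOAT KO 1139. Summed fat cell markers reached 327 CPM (counts per 1000000 counts of the library, with the library totals rescaled) in GOAT KO 1139 and 8.66 to 21.9 CPM elsewhere.

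The ovarian markers were present in every library. Granulosa cell markers summed to 4931 to 6106 CPM in the libraries labelled WT and 5553 to 6180 CPM in those labelled GOAT KO. Theca and steroidogenic markers summed to 2346 to 3403 CPM and 2820 to 3513 CPM in the same order, and their defining member Insl3 was too low to be tested. Corpus luteum markers were low in both groups, at 32.6 to 53.3 CPM and 30.5 to 48.3 CPM. In a whole ovary a change in the number of cells of a type and a change in RNA per cell cannot be told apart.

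Of the 3 receptors, Fshr alone passed the call rule used here, which takes genes whose log2 fold change goes beyond 0.3 either way at p under 0.05 before adjustment. It was the higher one where the label was GOAT KO. Lhcgr and Prlr did not pass it. Of all genes tested, 2.85% passed the rule in either direction, 1.58% upwards and 1.27% downwards. Without WT 1120 and GOAT KO 1139 the shares were 4.77%, 2.55% and 2.21%, and Fshr was again the one receptor past the rule. No receptor had an adjusted p under 0.05 in either set, where 4 and 20 genes of all did.

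Fshr lies on chromosome 17 of GRCm38, at 88984952 to 89200675 on the minus strand, with 10 exons and a single annotated transcript of 2360 bases. Its promoter is shown because it holds the E-box, the binding motif of the upstream stimulatory factors USF1 and USF2, through which Fshr transcription is known to be driven. The 250 bases before the RefSeq start (chr17:89200676-89200925, minus strand, GRCm38.p6) read as follows, with the E-box CACGTG in capitals.
Fshr promoter: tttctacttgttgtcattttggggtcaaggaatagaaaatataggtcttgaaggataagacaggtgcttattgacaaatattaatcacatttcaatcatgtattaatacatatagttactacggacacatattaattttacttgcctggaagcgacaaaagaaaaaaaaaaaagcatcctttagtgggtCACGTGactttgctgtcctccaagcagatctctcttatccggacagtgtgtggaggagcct
CACGTG, which reads the same on both strands, begins at position -61 and occurs once. It was found in 7.15% of the 32851 RefSeq promoters searched, each 250 bases before to 50 after a start. The match is a description of the letters only.

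Animals 1118, 1119, 1120 and 1121, labelled WT, had 33.0, 35.6, 42.8 and 32.7 CPM of Fshr. Animals 1139, 1140, 1141 and 1146, labelled GOAT KO, had 36.9, 42.5, 55.7 and 64.2 CPM. GOAT KO 1141 and 1146 lay above every library labelled WT, while 1139 and 1140 lay below WT 1120, so the groups overlapped. The means were 36.0 ± 4.69 CPM (SD, n = 4) and 49.8 ± 12.4 CPM (SD, n = 4), a log2 fold change of 0.47 (SE 0.16, 95% interval 0.12 to 0.83) with an unadjusted p of 0.0141 and an adjusted p of 0.98 by edgeR's quasi-likelihood test. The exact permutation test of the difference of 13.9 CPM gave p = 0.0857 (two-sided), where the smallest possible is 0.0286.

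Without WT 1120 and GOAT KO 1139 the Fshr groups no longer overlapped, as was so for 15.8% of all genes tested in those 6 libraries. The log2 fold change was then 0.68 (SE 0.13, 95% interval 0.40 to 0.96), with an unadjusted p of 0.00026 and an adjusted p of 0.14. The exact permutation test gave p = 0.1, the smallest that 3 against 3 libraries can give. Fshr remained past the call rule without any 1 library, with log2 fold changes between 0.32 (without GOAT KO 1146) and 0.59 (without GOAT KO 1139). The SD within the libraries labelled GOAT KO was the wider of the pair, and 1146 and 1141 supplied the upper end.

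**Figure D1:**
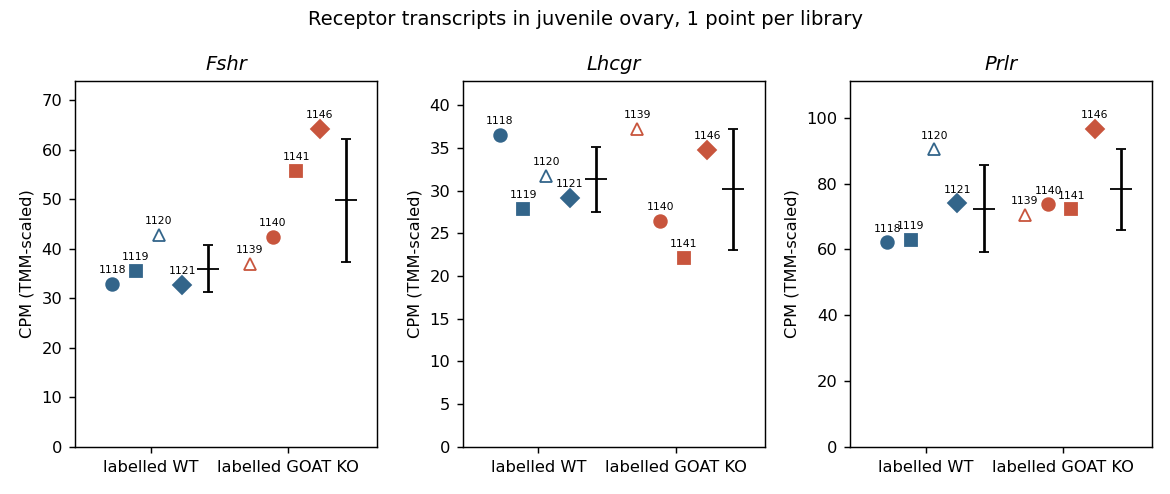
CPM of each receptor (y axes, from 0) in the 4 libraries labelled WT and the 4 labelled GOAT KO, 1 point per library with its animal number. Open triangles mark WT 1120 and GOAT KO 1139, and the bars beside the points give the mean and SD. For Fshr, GOAT KO 1141 and 1146 stand above all libraries labelled WT, while the Lhcgr and Prlr groups overlap.

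Lhcgr lies on the same chromosome and strand, at 88716481 to 88791990, and is the nearest tested gene to Fshr on that side, 192962 bases away. The principal transcript, Lhcgr-201, has 11 exons. Its promoter is shown as the contrast to that of Fshr, since Lhcgr is known as a TATA-less gene driven through the GC-binding factors SP1 and SP3. The 250 bases before the RefSeq start (chr17:88792015-88792264, minus strand, GRCm38.p6) carry the GC box GGGCGG in capitals.
Lhcgr promoter: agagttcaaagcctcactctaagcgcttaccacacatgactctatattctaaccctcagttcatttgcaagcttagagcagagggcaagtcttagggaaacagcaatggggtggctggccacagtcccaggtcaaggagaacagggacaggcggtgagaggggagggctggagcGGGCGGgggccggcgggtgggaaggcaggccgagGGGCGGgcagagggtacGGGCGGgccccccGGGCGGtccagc
GGGCGG, searched on both strands, occurred 4 times without overlap and was found in 35.7% of all promoters. The letters AGGTCA, taken here as a short form of the steroidogenic factor 1 motif, occurred once, against 16.3% of promoters with at least 1 copy. GC made up 63.2% of these bases and 36.8% of those before Fshr. Fshr held no GGGCGG and no AGGTCA, and Lhcgr held no CACGTG, in the 300 bases searched for each.

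Lhcgr stood at 36.5, 27.8, 31.7 and 29.1 CPM in WT 1118, 1119, 1120 and 1121. The libraries labelled GOAT KO gave 37.2, 26.4, 22.1 and 34.8 CPM in 1139, 1140, 1141 and 1146. GOAT KO 1139 was the highest of the 8 and GOAT KO 1141 the lowest, so 1 group spanned the other. The means were 31.3 ± 3.84 and 30.1 ± 7.08 CPM (SD, n = 4 each), with a log2 fold change of -0.06 (SE 0.16, 95% interval -0.40 to 0.29) and an adjusted p of 0.99. The exact permutation test gave p = 0.771 (two-sided). Without WT 1120 and GOAT KO 1139 the log2 fold change was -0.17 (95% interval -0.51 to 0.18). It was positive, by at most 0.066, without WT 1118, GOAT KO 1140 or GOAT KO 1141. The interval over all 8 libraries reaches from 0.76 to 1.22 times the level labelled WT, and a change inside it was not excluded with 4 libraries a group.

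Prlr lies on chromosome 15 at 10177238 to 10349180 on the plus strand, and 12 transcripts are annotated. Under the label WT it stood at 62.1, 62.8, 90.3 and 73.9 CPM (1118, 1119, 1120 and 1121). Under GOAT KO it stood at 70.5, 73.7, 72.1 and 96.6 CPM (1139, 1140, 1141 and 1146). WT 1120 and GOAT KO 1146 were the high library of each group, and the other 6 lay between 62.1 and 73.9 CPM. The means were 72.3 ± 13.2 and 78.2 ± 12.3 CPM (SD, n = 4 each), with a log2 fold change of 0.11 (SE 0.13, 95% interval -0.18 to 0.41) and an adjusted p of 0.98. The exact permutation test gave p = 0.514 (two-sided). Without WT 1120 and GOAT KO 1139 the log2 fold change was 0.28 (95% interval 0.04 to 0.53) with an unadjusted p of 0.028 and an adjusted p of 0.50, under the fold of the call rule. Without GOAT KO 1146 alone it was -0.0044.

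Apart from Fshr and Lhcgr, which neighbour each other, the nearest tested genes of the receptors did not pass the call rule. Gtf2a1l, a germ cell transcription factor gene 1329 bases beyond the far end of Lhcgr, had a log2 fold change of -0.05. Gm10184, on the other side of Fshr, had -0.08. Spef2, a sperm flagellar gene, and Dnajc21, a co-chaperone gene, flank Prlr and had log2 fold changes of 0.11 and -0.04.

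Per length of transcript Fshr stood above the other receptors, by an amount that rests on the length taken. Divided by all annotated exon bases of each gene, Fshr stood at 18.2 ± 4.84 CPM per kb (SD, n = 8 libraries), Prlr at 4.91 ± 0.80 and Lhcgr at 4.02 ± 0.69. Fshr was above both others in 8 of 8 libraries. Lhcgr was above Prlr in 2 libraries and below it in 6, so these neighbours in the order did not differ beyond their spread. Prlr has 15339 annotated exon bases, many of them in forms with no spliced read here. Divided by the principal transcript alone, an alternative added after the data were seen, Prlr stood at 7.60 ± 1.24 CPM per kb and Lhcgr at 4.50 ± 0.78. Prlr was then above Lhcgr in 8 of 8 libraries. Assembled exons covered 46.4% to 62.7% of the last Lhcgr exon of 5864 bases, against 85.2% to 100% of the long-form last exon of Prlr. Without division by length, a library held 45 to 154 spliced reads on the principal transcript of Fshr. Lhcgr had 91 to 131 and Prlr 42 to 69, so Lhcgr lay above Prlr and overlapped Fshr. Among all tested genes the mean CPM of Prlr, Fshr and Lhcgr lay above that of 76.9%, 62.4% and 54.1% of genes.

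**Figure D2:**
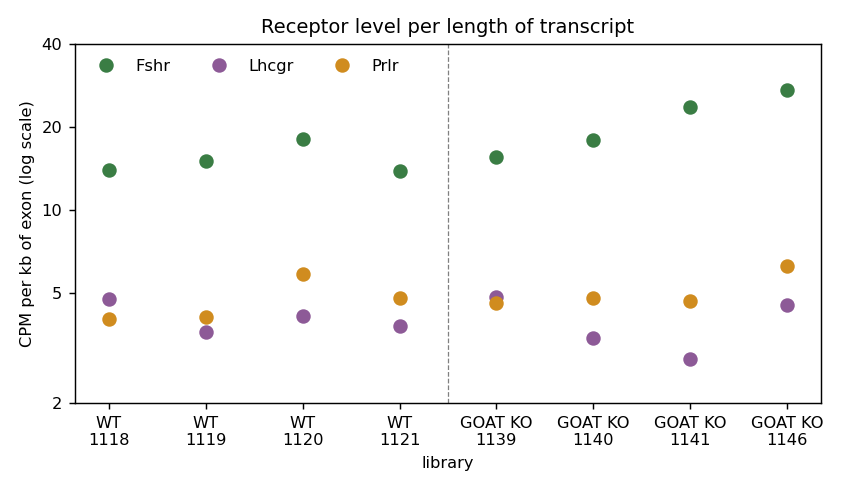
Level of each receptor in each library as CPM per kb of annotated exon (y axis, log scale), with the libraries labelled WT to the left of the dashed line and those labelled GOAT KO to the right. Fshr stands above the other receptors in all 8 libraries, between 13.8 and 27.2, and Lhcgr and Prlr cross.

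The balance of the receptors within a library was compared as a log2 ratio of their CPM. Fshr over Lhcgr ran from -0.15 to 0.43 in the libraries labelled WT and from -0.01 to 1.34 in those labelled GOAT KO. GOAT KO 1140, 1141 and 1146 lay above all libraries labelled WT, and GOAT KO 1139 lay among them. The means differed by 0.52 (exact permutation p = 0.143, adjusted 0.214 over the 3 pairs) and by 0.84 without WT 1120 and GOAT KO 1139. Fshr over Prlr differed by 0.33 (exact permutation p = 0.0857, adjusted 0.214) and by 0.39 without the pair. Lhcgr over Prlr differed by -0.20 (exact permutation p = 0.429, adjusted 0.429) and by -0.46 without the pair. WT 1118 was the highest library in this ratio, at -0.77, and the other libraries labelled WT ran from -1.51 to -1.17. The ratios were not computed with 1 library left out. None of the 3 ratios passed these tests over all 8 libraries.

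The spliced reads gave another view of the same libraries, since reads of 50 bases that cross an exon junction place each exon in the mature transcript. They came from the same sequencing as the counts and are not independent of them. Each library held 2586686 to 3239382 junction reads in all. Over the principal transcripts, 790 junction reads fell on Fshr, 895 on Lhcgr and 424 on Prlr, and 95.6%, 96.3% and 99.3% of each gene's junction reads followed the annotated order of exons. An entry missing from a library's junction list is weak evidence: of 62842 annotated junctions with at least 80 reads over the 8 libraries, 17.7% were unlisted in at least 1 library.

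Over the 4 Fshr junctions read in every library, the libraries labelled WT held 12.8, 16.9, 21.8 and 18.05 reads per 1000000 junction reads (1118, 1119, 1120 and 1121). Those labelled GOAT KO held 17.4, 25.6, 28.4 and 36.6 (1139, 1140, 1141 and 1146). GOAT KO 1140, 1141 and 1146 lay above all libraries labelled WT. The means of 17.4 ± 3.73 and 27.0 ± 7.92 (SD, n = 4 each) differed by 9.60 (exact permutation p = 0.0857, adjusted 0.257 over the 3 receptors), and without WT 1120 and GOAT KO 1139 they were 15.9 and 30.2 (exact permutation p = 0.1). The same sums gave 40.4 ± 7.43 and 37.3 ± 7.99 for Lhcgr over 8 junctions and 12.5 ± 3.57 and 11.6 ± 2.60 for Prlr over 3 junctions, with exact permutation p of 0.543 and 0.743. Prlr was thus on the other side of 0 in its spliced reads than in its counts, and neither passed a test. WT 1118 raised the WT mean of the Prlr spliced reads, at 17.8 against 10.2 to 11.2 in the other libraries of that label.

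Fshr exon 5, of 72 bases, was left out in some reads. The exon is shown because its length is a multiple of 3, so a transcript without it keeps the reading frame. It encodes part of the leucine-rich hormone-binding domain. The sequence (chr17:89011015-89011086, minus strand, GRCm38) has the exon in capitals between 12 bases of each neighbour, and the join without it has exon 6 in capitals.
Fshr exon 5: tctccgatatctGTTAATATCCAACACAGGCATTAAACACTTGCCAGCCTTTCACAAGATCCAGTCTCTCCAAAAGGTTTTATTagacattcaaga
Fshr without exon 5: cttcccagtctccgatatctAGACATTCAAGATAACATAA
The join of exon 4 to exon 6 is not annotated and was read 21 times, in WT 1118, 1119 and 1120 and in GOAT KO 1141 and 1146. Of all 195 reads entering exon 6, 11.8% (95% exact interval 7.63 to 17.2, counting error only) did not come from exon 5. Under the label WT the share was 16.7%, 26.7%, 19.2% and 0% (1118, 1119, 1120 and 1121). Under GOAT KO it was 0%, 5.56%, 14.7% and 9.52% (1139, 1140, 1141 and 1146). The groups overlapped, and the difference of -8.19 percentage points gave an exact permutation p of 0.257 (adjusted 1 over the 14 splice sites tested). It was -13.4 points without WT 1121, where the groups did not overlap (exact permutation p = 0.0571), as was so for 1.85% of splice sites over all genes with more than 1 partner and at least 10 reads, and -4.52 points without WT 1119 or without WT 1120 and GOAT KO 1139. Seen from exon 4, 22 of 95 reads leaving it (23.2%, 95% exact interval 15.1 to 32.9) did not go to exon 5. That share was 100% in WT 1118, WT 1120 and GOAT KO 1141, where the join of exons 4 and 5 was not listed, 16.7% in WT 1119, 0% in GOAT KO 1140 and 10.8% in GOAT KO 1146 (exact permutation p = 0.4). The difference of -35.3 points ran from -66.8 without GOAT KO 1141 to -16.8 without GOAT KO 1140.

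Fshr exon 3 was absent from the processed output of these libraries. No read was listed across the junctions of exons 2 and 3 or 3 and 4, and no assembled exon covered it in any of the 8 libraries. Exon 4 was assembled in 4 libraries, and its join to exon 5 was read 73 times, in WT 1119 (15 reads) and GOAT KO 1140 and 1146 (25 and 33 reads) only. From exon 2, 9 reads in 4 libraries instead entered an unannotated position 2860 bases downstream. Among 174 genes with 1 annotated transcript, at least 5 exons and a median of at least 80 reads a junction, 31.6% had a junction with no listed read, as Fshr did. Whether exon 3 is present in ovarian Fshr was not tested.

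Lhcgr had a skipped exon of the same kind. Exon 4, of 75 bases, is shown with exon letters in capitals (chr17:88767253-88767327, minus strand, GRCm38), beside the join of exons 3 and 5 with exon 5 in capitals.
Lhcgr exon 4: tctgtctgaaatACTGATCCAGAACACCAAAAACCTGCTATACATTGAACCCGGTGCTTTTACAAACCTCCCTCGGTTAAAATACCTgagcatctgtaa
Lhcgr without exon 4: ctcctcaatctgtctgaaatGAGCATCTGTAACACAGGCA
The join was read 11 times, in WT 1118, 1119 and 1121 (2 reads each) and in GOAT KO 1139 (5 reads). Of 142 reads entering exon 5, 9.86% (95% exact interval 5.50 to 16.0) did not come from exon 4. The mean share was 11.6% ± 6.07 in the libraries labelled WT and 9.50% ± 9.14 in those labelled GOAT KO (SD, n = 4 each), with an exact permutation p of 0.743. The difference of -2.10 points moved between -6.18 (without GOAT KO 1139) and 1.07 (without GOAT KO 1146) with 1 library out. In the 6 libraries without WT 1120 and GOAT KO 1139 it was -8.97 points, with shares of 11.1% to 16.7% under the label WT and 0% to 10% under GOAT KO, which did not overlap (exact permutation p = 0.1, the smallest that 3 against 3 libraries can give). In the same 6 libraries 3.07% of splice sites over all genes, with more than 1 partner and at least 10 reads, did not overlap. Of 141 reads leaving exon 3, 12.8% did not go to exon 4, with a difference of -9.27 points (exact permutation p = 0.371), or -16.4 points without that pair (exact permutation p = 0.2) and -2.30 points without WT 1119.

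The start of the last Lhcgr exon, which encodes the membrane-spanning part of the receptor, was read at 2 annotated positions. Lhcgr-201 enters the exon at its full-length start, and Lhcgr-203, annotated as a target of nonsense-mediated decay, enters 428 bases further on. Both joins are shown with exon 11 in capitals.
Lhcgr-201: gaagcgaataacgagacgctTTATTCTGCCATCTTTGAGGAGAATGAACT
Lhcgr-203: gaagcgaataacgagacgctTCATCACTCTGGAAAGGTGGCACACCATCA
The full-length join was read 12 times, with 1, 5, 3 and 3 reads in GOAT KO 1139, 1140, 1141 and 1146 and 0 in every library labelled WT. The join of Lhcgr-203 was read 9 times, with 3 and 2 reads in WT 1118 and 1120 and 2 reads each in GOAT KO 1140 and 1146. Of the reads leaving exon 10, 100% went elsewhere than to the full-length start in the 3 libraries labelled WT that had any, against a mean of 17.1% ± 20.3 (SD, n = 4) in those labelled GOAT KO. The groups did not overlap, and the exact permutation p was 0.0286, the smallest this design can give, with an adjusted p of 0.40 over 14 splice sites. It stayed at 0.0286 without WT 1119, which had no such read, and was 0.0667 to 0.1 without any 1 of the other 7 libraries, with differences of -77.1 to -90.5 percentage points. The reads behind it were few: 7 in the libraries labelled WT and 16 in those labelled GOAT KO, where the join of exons 8 and 9 had 57 reads in each group. Over all genes, of the splice sites with more than 1 partner and reads in at least 3 libraries of each group, 1.05% of those with at least 10 reads and 1.77% of those with 10 to 50 reads had shares that did not overlap between the groups.

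Prlr was read in its long form. The long form and the short forms shown here share exon 9 and differ in the last exon, so the joins are shown with the first 30 bases of each last exon in capitals.
Prlr-202 (long form): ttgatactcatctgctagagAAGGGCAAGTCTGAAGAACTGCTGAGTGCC
Prlr-204 (short form): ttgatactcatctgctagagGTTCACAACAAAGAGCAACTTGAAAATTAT
Prlr-212 (short form): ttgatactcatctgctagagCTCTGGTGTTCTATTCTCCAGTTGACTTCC
Prlr-205 (short form): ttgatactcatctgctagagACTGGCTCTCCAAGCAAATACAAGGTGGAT
The last exon holds 984 coding bases in Prlr-202 and 36, 69 and 90 in Prlr-204, Prlr-212 and Prlr-205. The long-form join was read 34 times, with 3, 7, 6 and 3 reads under the label WT (1118, 1119, 1120 and 1121) and 4, 3, 0 and 8 under GOAT KO (1139, 1140, 1141 and 1146). The short-form joins were read 0 times of 36 reads leaving exon 9, which allows a share of up to 8.33%. The other 2 of those reads went to unannotated positions, in GOAT KO 1140 and 1146. No assembled exon covered any short-form last exon in any library, while 85.2% to 100% of the long-form exon of 8729 bases was covered in all 8.

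Annotated first exons of Prlr were assembled at more than 1 place. Those beginning between 10177238 and 10177781 were assembled in 8 of 8 libraries, and those beginning at 10213465, 10215955, 10223986 and 10249560 in none. The first exon of Prlr-203, which begins at 10314102 and runs 63 bases further upstream than exon 3, was also assembled over its whole length in 8 of 8. Exon 2, at whose first base RefSeq places another start, was assembled in 5. The 250 bases before the RefSeq start with an assembled exon in all 8 libraries (chr15:10176988-10177237, plus strand, GRCm38.p6) are shown as the promoter these data bear on. No capitals are used, since none of the motifs named for Fshr and Lhcgr was found.
Prlr promoter: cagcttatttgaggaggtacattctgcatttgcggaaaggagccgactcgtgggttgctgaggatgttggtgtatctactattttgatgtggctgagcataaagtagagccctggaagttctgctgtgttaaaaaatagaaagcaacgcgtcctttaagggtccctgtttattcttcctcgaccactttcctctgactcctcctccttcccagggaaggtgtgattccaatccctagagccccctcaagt
The join of the exon that follows it to exon 2 spans 115779 bases and was not listed in any library. A predicted gene, Gm21973, shares exons with Prlr and had 0 counts in all libraries. Reads in the shared exons may have been left out of the Prlr count as ambiguous.

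**Figure D3:**
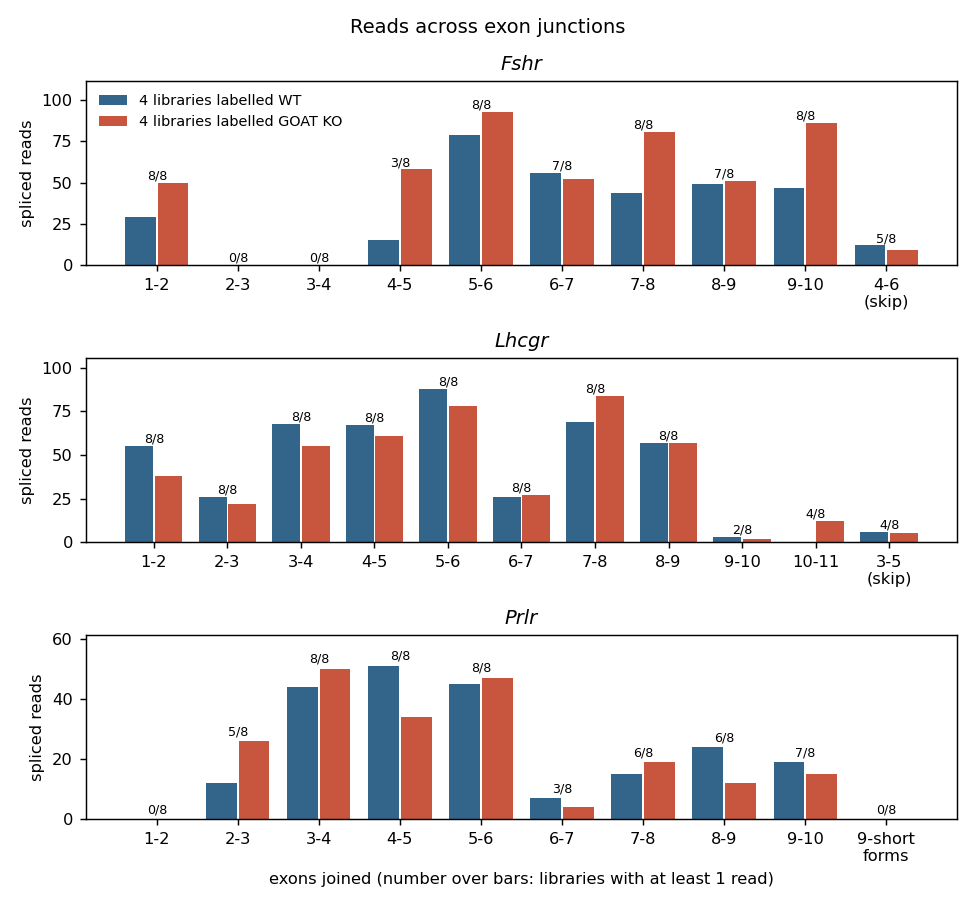
Spliced reads (y axes, from 0) across each junction of the principal transcripts, summed over the 4 libraries labelled WT and the 4 labelled GOAT KO, with the skipped exons and the Prlr short forms at the right. The number over each pair of bars counts the libraries with at least 1 read: 0 of 8 for Fshr junctions 2-3 and 3-4, Prlr junction 1-2 and the Prlr short forms.

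The hormones of these receptors come from the pituitary. Prl had 0 counts in all libraries, Fshb 4 and Cga 12 in total, and Lhb, the LH beta subunit, 42 to 74 counts a library with a log2 fold change of -0.21 that did not pass the call rule.

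Among 11 targets of FSH in granulosa cells, 6 are also on the study's own list of FSH targets, which was chosen on these samples, so the direction of the 11 is not independent evidence. Of the 11 genes, 10 had a positive log2 fold change, 4 passed the call rule upwards and 0 downwards, and their median was 0.28 against 0.00 for all genes. Without WT 1120 and GOAT KO 1139 all 11 were positive, 8 passed upwards and the median was 0.48. The 6 genes shared with the study's list (Cyp19a1, Inhba, Inhbb, Fst, Nppc and Cyp11a1) had a median of 0.39 with 3 called, or 0.55 with 6 called without the pair. The other 5 (Inha, Hsd17b1, Ccnd2, Sgk1 and Prkar2b) had a median of 0.09 with 1 called, or 0.14 with 2 called without the pair. None of the 11 had an adjusted p under 0.05 in either set. The count rested on single libraries: it was 2 without WT 1118, WT 1119, WT 1121 or GOAT KO 1141 and 7 without WT 1120, where 2.79% of all genes passed upwards. Inha and Hsd17b1 are on both this list and the granulosa marker list. The other 5 granulosa markers summed to 1584 to 1888 CPM under the label WT and to 1726 to 1830 CPM under GOAT KO, and their log2 fold changes were of both signs: -0.21 for Amh, -0.17 for Foxl2, 0.14 for Amhr2, 0.14 for Kitl and 0.13 for Nr5a2. The part of granulosa cell content in the result was not tested.

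Inhba, the activin beta A subunit, showed the widest difference of the 4 that passed. It stood at 49.5, 70.3, 180 and 93.8 CPM in WT 1118, 1119, 1120 and 1121 and at 210, 103, 200 and 245 CPM in GOAT KO 1139, 1140, 1141 and 1146. GOAT KO 1139, 1141 and 1146 were above every library labelled WT, and the log2 fold change was 0.95 (SE 0.36, adjusted p = 0.98 by edgeR), or 1.36 without WT 1120 and GOAT KO 1139. Nppc encodes C-type natriuretic peptide, which keeps the oocyte in meiotic arrest. It stood at 11.8, 16.1, 17.2 and 15.8 CPM under the label WT and at 22.3, 19.8, 24.1 and 19.2 CPM under GOAT KO, with no overlap and a log2 fold change of 0.49 (SE 0.12). CPM values did not overlap between the groups for 2.92% of all genes tested. Fst, which encodes the activin-binding protein follistatin, and Hsd17b1, which encodes the enzyme that makes estradiol from estrone, passed with log2 fold changes of 0.36 and 0.31. Of these 4, Nppc passed whichever library was left out. Inhba did not pass without WT 1118, WT 1119, WT 1121 or GOAT KO 1146 (0.73 to 0.93), Fst without WT 1120 or GOAT KO 1141 (0.26 and 0.32), and Hsd17b1 without WT 1118, WT 1119, WT 1121, GOAT KO 1139 or GOAT KO 1141 (0.22 to 0.30).

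Cyp19a1, the aromatase gene and a classical FSH target, turned on the pair WT 1120 and GOAT KO 1139. It stood at 6.56, 5.05, 64.9 and 9.69 CPM in WT 1118, 1119, 1120 and 1121 and at 45.1, 6.84, 17.6 and 31.5 CPM in GOAT KO 1139, 1140, 1141 and 1146. WT 1120 was the highest of all 8. The log2 fold change was 0.22 (SE 0.77) with all libraries, -0.21 without GOAT KO 1139, -0.10 to -0.02 without WT 1118, WT 1119 or WT 1121, 1.82 without WT 1120 and 1.39 (SE 0.43, adjusted p = 0.42 by edgeR) without the pair. Inhbb (the activin beta B subunit), Cyp11a1 (the side-chain cleavage enzyme) and Prkar2b (a regulatory subunit of protein kinase A) passed the rule without the pair and without WT 1120 alone, at 0.57, 0.48 and 0.52 against 0.42, 0.28 and 0.17 with all 8. Inha, the inhibin alpha subunit, did not pass in either set, at 0.09 and 0.14.

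The counts of the study's own list are likewise not independent evidence of direction. Fshr is itself on that list and was left out of the count. Of the 8 other genes 4 passed the call rule upwards with all libraries and 7 without WT 1120 and GOAT KO 1139, where Wt1, a transcription factor of early follicles, passed downwards at -0.33. Without WT 1118 or GOAT KO 1141 the count upwards was 2. Tk1, the thymidine kinase of dividing cells, is on that list alone and had log2 fold changes of 0.32 and 0.40 in the 8 and 6 libraries and did not pass without WT 1118 or GOAT KO 1141 (both 0.25).

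**Figure D4:**
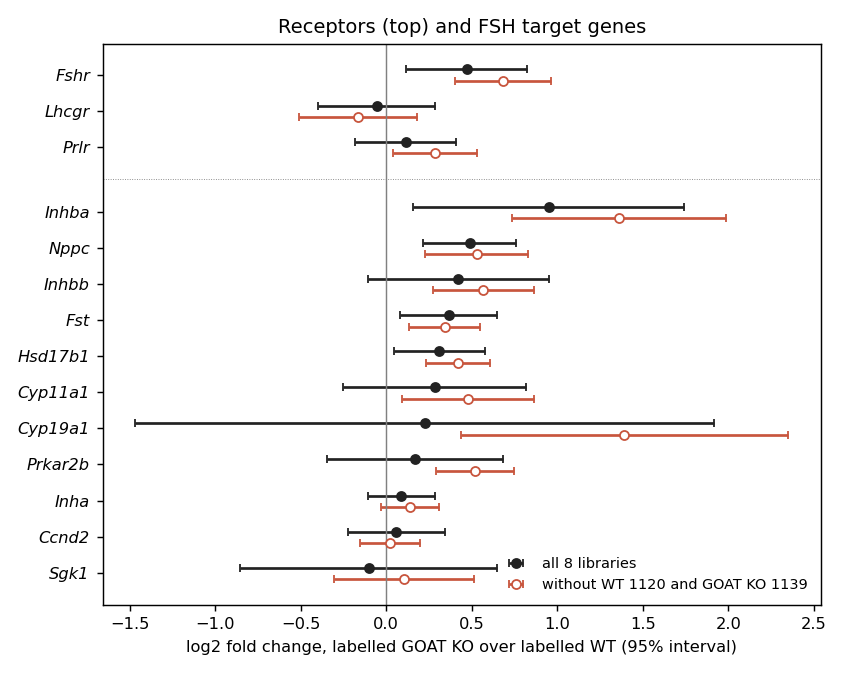
Log2 fold change (x axis, labelled GOAT KO over labelled WT) with its 95% interval from the fit across all genes, for the 3 receptors and below them the 11 FSH target genes. Filled points use all 8 libraries and open points the 6 without WT 1120 and GOAT KO 1139; Fshr lies at 0.47 and 0.68, and 10 and 11 of the FSH targets lie above 0.

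Genes that LH acts on in theca and other steroidogenic cells did not pass the call rule in the libraries as a whole. Of 9 tested, 8 had a positive log2 fold change, with a median of 0.23, and 0 passed. Without WT 1120 and GOAT KO 1139, Cyp11a1 passed. Without WT 1120 alone 4 passed upwards: Cyp11a1 (0.57), Cyp17a1 (1.91), Scarb1 (0.61) and Fdxr (0.31), against 2.79% of all genes. Hsd3b1, which encodes the enzyme that makes progesterone, was at 1902 ± 286 CPM and 2110 ± 186 CPM (SD, n = 4 each) with a log2 fold change of 0.15. Scarb1, the receptor that takes up cholesterol from high-density lipoprotein, was highest in GOAT KO 1139 (465 CPM) and WT 1120 (408 CPM), against 180 to 249.5 CPM in the other 6 libraries. Its log2 fold change of 0.23 became -0.12 without GOAT KO 1139 and 0.61, past the rule, without WT 1120. Star, the carrier of cholesterol into mitochondria, had the widest log2 fold change of the list with all 8 libraries, 1.89, which did not pass the test. It stood at 233 CPM in GOAT KO 1139 and at 8.13 to 31.9 CPM in the other 7 libraries, and the log2 fold change was -0.52 without GOAT KO 1139 and -0.10 without the pair. Without GOAT KO 1140, 1141 or 1146 it passed, at 2.19 to 2.26.

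Genes that the LH surge induces before ovulation had differences of both signs. Of 14 tested, 5 were positive and 9 negative, with a median of -0.06, and Areg, Ptgs2 and Sult1e1 were too low to be tested. Tnfaip6, which stabilises the cumulus matrix, passed upwards at 0.83 from levels under 1.5 CPM, and did not pass without WT 1120 and GOAT KO 1139 (0.80) or without GOAT KO 1140 (0.61). Cited4, a transcriptional co-regulator, passed downwards in both sets. It stood at 9.10, 6.33, 8.93 and 5.94 CPM under the label WT and at 6.21, 3.91, 3.53 and 2.67 CPM under GOAT KO, with log2 fold changes of -0.89 and -1.07. Adamts1, Runx1 and Cebpa, the most abundant of the list, did not pass.

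In the prolactin pathway 0 of 14 genes passed the call rule in either set, with medians of -0.03 and 0.01. Socs2, a feedback inhibitor of the pathway, was at 300 ± 50.1 CPM and 327 ± 20.8 CPM (SD, n = 4 each). Ptpn11 and Stat3, a phosphatase and a transcription factor of the pathway, had log2 fold changes of 0.07 and 0.05. Of 32 tested genes of cyclic AMP signalling and receptor desensitization, 0 passed with all libraries and Prkar2b alone without WT 1120 and GOAT KO 1139, with medians of -0.02 and -0.04. Gnas, the stimulatory G protein that couples both gonadotropin receptors, had a log2 fold change of -0.01, and Rgs2, a regulator of G protein signalling, 0.04.

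Factors known to regulate the receptor transcripts did not pass the call rule either, 0 of 16 in both sets. The most abundant were Foxo1, Nr5a2 and Esr2, granulosa transcription factors, with log2 fold changes of 0.03, 0.13 and 0.11. Usf1 and Usf2, whose motif stands before Fshr, are in this list. Of 7 tested receptors related in structure, 0 passed with all libraries, and Lgr5, a leucine-rich repeat receptor, passed downwards at -0.32 without WT 1120 and GOAT KO 1139. Without WT 1120 alone 2 passed downwards, where 398 of all 16767 genes did. Without GOAT KO 1140, 1141 or 1146, 1 passed upwards, where 285, 245 and 292 of all genes did. Ghr, Lgr6 and Lgr4 were the most abundant, with log2 fold changes of -0.04, -0.23 and 0.08.

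The genes most like each receptor were found by Pearson's r of log2 CPM over the 8 libraries, among all tested genes. They are a description over 8 points that share the same libraries, and among so many genes high values of r occur for any gene. For Fshr they were Adgrb2, Grem1, Ranbp17, Ttc7b and Mecom, with r of 0.94 to 0.96. Grem1, a bone morphogenetic protein antagonist, stood at 4.21, 4.33, 5.87 and 5.34 CPM under the label WT and at 6.04, 6.59, 13.3 and 22.2 CPM under GOAT KO, the order of the Fshr values in 1139, 1140, 1141 and 1146. For Lhcgr they were Ppp1r3d, Cstf3, RP24-332C17.3, Acadm and Atf1, and for Prlr Smpx, Ccng2, Lck, Prss35 and Stx2.

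Relations of the receptor levels with each other and with marker levels were computed in 12 pairs over the 8 libraries. Fshr and Prlr had Pearson's r of 0.69 (exact permutation p = 0.0558, adjusted 0.57) and Spearman's rho of 0.55 (exact permutation p = 0.171, adjusted 0.98), and r was 0.68 without the 2 libraries farthest from the median. Lhcgr and the theca and steroidogenic markers had r of 0.62 (exact permutation p = 0.0951, adjusted 0.57) and rho of 0.71 (exact permutation p = 0.0576, adjusted 0.69), and r was 0.53 without the 2 farthest libraries. Fshr and the granulosa markers had r of 0.21 (exact permutation p = 0.638) and, without WT 1120 and GOAT KO 1139, 0.67. Leaving out that pair also moved r from 0.11 to -0.63 for Lhcgr and the granulosa markers, from 0.35 to 0.83 for Prlr and the theca and steroidogenic markers, and from 0.01 to 0.49 for Fshr and the latter. None of the 12 passed an adjusted p of 0.05.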

How the data were processed

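Total RNA of 8 ovaries was sequenced as single reads of 50 bases. The authors aligned the reads to mm10 (GRCm38) with TopHat2 2.0.14, assembled transcripts with StringTie 1.0.4 and deposited raw counts per gene, junction read counts per library and assembled exon positions, whose unit is a base position. The gene counter was not given in the sources used here. Here counts were fitted with edgeR 4.0.16 (quasi-likelihood test, TMM scaling, low-count filter, R 4.3.3) over all 8 libraries, with Benjamini-Hochberg adjustment over all genes tested; DESeq2 1.42.0 was an alternative, and the fit was tested on simulated data. Single values were compared by two-sided exact permutation tests over libraries. Splice sites with at least 10 reads in all were tested. Exons were read from GENCODE M21, of the same build but later than the release the authors used. Promoters were placed at RefSeq starts of GRCm38.p6, which can differ from the GENCODE starts. The 3 receptors were named, with Mboat4, list genes past the call rule (p under 0.05 and absolute log2 fold change over 0.3) in either set, the 3 most abundant of each list, the 5 most alike and the nearest neighbours. Other genes were named after their values were seen. Members and lists were chosen with earlier results of these data known. Replicates are separate animals. Intervals of shares and limits for 0 reads cover counting error only.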

Additional observations from a re-analysis of the deposited data

Results flagged for a closer look

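In groups of 4 libraries, a single value was looked for that lay far from the other 3 (by Dixon's criterion). Of 142 groups checked 17 held one, where chance gives about 1 in 20. Among the receptors it was Prlr in GOAT KO 1146, at 96.6 CPM against 70.5 to 73.7 CPM in the other libraries of that label. Its spliced reads stood apart in another library, WT 1118, at 17.8 per 1000000 junction reads against 10.2 to 11.2. GOAT KO 1146 also stood apart in Prss35 (262.0 CPM) and Ccng2 (111 CPM), both chosen for their likeness to Prlr over these libraries, and in Foxo1 (1273 CPM). WT 1120 stood apart in Cyp19a1 (64.9 CPM against 5.05 to 9.69), Scarb1 (408 CPM against 181 to 190), Star (31.9 CPM against 12.4 to 14.5) and Cebpa (57.2 CPM against 29.0 to 31.3). GOAT KO 1139 stood apart in Cebpa (79.2 CPM), Star (233 CPM against 8.13 to 20.4), Stat3 (147 CPM) and the summed markers of fat (327 CPM against 16.2 to 21.9), ovarian surface epithelium (203.9 CPM against 164 to 167) and oviduct (10.5 CPM against 5.62 to 6.27). Wt1 in GOAT KO 1140 was at 161 CPM against 146 to 148, and RP24-332C17.3 in WT 1118 at 0.68 CPM against 0.60 to 0.61.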

How the results depend on the processing

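Fshr kept its direction and its side of the call rule under all 12 alternatives (log2 fold change 0.32 to 0.68, adjusted p 0.14 to 1.00). Its unadjusted p by edgeR or DESeq2 ran from 0.00026 to 0.0494. The lowest fold change and the highest p thus lay close to the cuts of the rule. Leaving out 1 library at a time moved Lhcgr between -0.17 and 0.066 and Prlr between -0.0044 and 0.23, each changing sign, and their CPM differences between -3.53 and 1.51 and between -0.19 and 11.96; the cause was not tested. Genes called numbered 473 (262 higher, 211 lower), 918 (524, 394) without a filter on low counts, where more genes were tested, and 793 (425, 368) without WT 1120 and GOAT KO 1139; with 1 library out they numbered 382 to 866 (228 to 468, 154 to 398), the most without WT 1120. FSH targets called higher numbered 4, 8 without the pair and 2 to 7 with 1 library out; the study's list gave 4, 7 and 2 to 6. LH-dependent theca genes called higher numbered 0, 1 without the pair, 1 without a filter on low counts and 0 to 4 with 1 library out. These list alternatives, and those of Star, were chosen after the data were seen. Cebpa (-0.0049), Star (-0.10) and Stat3 (-0.019) changed sign without the pair. With 1 library out the sign also changed for Atf1 (-0.067 to 0.014), Ccng2 (-0.013 to 0.11), Cebpa (-0.30 to 0.48), Cyp19a1 (-0.21 to 1.82), Dnajc21 (-0.10 to 0.011), Esr2 (-0.016 to 0.22), Foxo1 (-0.0085 to 0.054), Ghr (-0.21 to 0.14), Gm10184 (-0.17 to 0.018), Gnas (-0.033 to 0.028), Gtf2a1l (-0.11 to 0.057), Lck (-0.073 to 0.18), Ppp1r3d (-0.18 to 0.045), Prss35 (-0.054 to 0.19), RP24-332C17.3 (-0.091 to 0.070), Rgs2 (-0.019 to 0.10), Scarb1 (-0.12 to 0.61), Smpx (-0.011 to 0.66), Spef2 (-0.15 to 0.25), Star (-0.52 to 2.30) and Stat3 (-0.010 to 0.093), none past the rule with all libraries. The share of Lhcgr reads entering exon 5 from elsewhere than exon 4 differed by 4.06 points with annotated junctions only, 0.83 points with pooled reads, -8.97 points without the pair and -6.18 to 1.07 points with 1 library out. Of 51 other genes named, 18 kept direction and call under every alternative. No splice site had an adjusted p under 0.05 under any of the 10 alternatives that allowed a test. With annotated junctions only, the exact permutation p of the Lhcgr exon 10 site was 0.0667. No paired analysis was possible because the sample labels do not give the litter, which was thus not in the fit. Few reads a library stand behind each junction share.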
